A study of Mus musculus with 40 samples.

Results

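The EGF receptor family and its ligands were followed across 25 mouse lung samples as 9 genes: the receptors Egfr, Erbb2 and Erbb3 and the ligands Areg, Ereg, Btc, Hbegf, Tgfa and Epgn. They were taken by gene symbol from a table of 37310 genes. Of the 9 members, 8 were among the 15630 genes that passed a filter on low and unvarying values, and Epgn was not.

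EGF receptor family proteins are receptor tyrosine kinases that pair with each other when a ligand binds and then signal through the ERK and PI3K pathways. The ligands are made as membrane-anchored precursors and are released by proteases such as ADAM17. Egfr binds all 6 ligands, Erbb2 has no known ligand of its own and acts as a partner, and Erbb3 binds neuregulins and has little kinase activity. In lung epithelium the family is known for its part in airway repair, squamous growth and lung cancer.

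The mice were of the inbred strains SWR/J and A/J and were treated on the skin with N-nitroso-tris-chloroethylurea (NTCU), a carcinogen that gives squamous lesions in sensitive strains, or with acetone as vehicle. Solutions of 40 or 80 mmol/L were given for 14 to 25 weeks, and the study's methods describe female mice of about 8 weeks at entry. The 7 normal samples came from acetone-treated mice, 3 laser-capture microdissected (LCM) and 4 whole lung, 4 SWR/J and 3 A/J. The 5 mild dysplasia samples (3 LCM, 2 whole lung) came from SWR/J mice given 15 µmol NTCU in total, and none came from A/J. The 13 high-grade samples (7 LCM and 6 whole lung, 8 SWR/J and 5 A/J) came from mice given 14 to 50 µmol and comprised 9 of moderate to severe dysplasia, 2 of severe dysplasia, 1 carcinoma in situ and 1 squamous cell carcinoma (SCC) tumor. The grades are lesions of different animals or sections and not a series over time, and the labels do not tell which samples share an animal, so the p-values measure only the spread between samples. The titles of mild dysplasia replicates 2 and 5, both LCM samples, differ only by an added letter. Whether these share an animal or specimen is not stated, and they were counted as separate samples.

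The expected counts of the 25 samples summed to between 2667387 and 16534728 (median 9075416), and the other 15 of the 40 samples did not pass the study's quality label and had sums of 17051 to 1965373. Markers of the epithelium (Epcam, Cdh1, Krt8, Krt18 and Krt19) were present in all 3 groups, with median summed levels of 9.59, 10.96 and 10.22 on the log2 scale in normal, mild and high-grade samples. Several samples stood apart. Normal replicate 7, an SWR/J whole lung sample, had the highest summed level of squamous markers of all 25 samples (16.39, where the normal median was 8.82 and the highest high-grade sample was at 15.11). Normal replicate 8, also SWR/J whole lung, had the lowest epithelium markers of all 25 samples (5.73, with the other normal samples at 9.17 to 11.14) and the highest leukocyte markers (10.34). Normal replicate 10, an A/J LCM sample, had the highest basal cell markers of the normal samples (11.83, normal median 8.03). Its squamous markers were at 12.02, where the high-grade median was 11.24. Thymocyte markers (Rag1, Dntt, Ptcra, Cd8a) were above a log2 summed level of 10 in 3 normal samples (replicates 3, 6 and 9), in no mild sample and in 2 high-grade samples (moderate to severe dysplasia replicates 4 and 10). Skeletal muscle markers were above 12 in 3 high-grade samples. Of the 25 samples, 2 carried a description that did not match their grade label (normal replicate 10 and mild dysplasia replicate 5), and the grade label was used.

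In the mouse genome (NCBIM37, the assembly of the deposited counts), 4 of the 6 ligand genes lie side by side on chromosome 5. The order is Epgn (chr5:91456490-91464241), Ereg (chr5:91503643-91522675), Areg (chr5:91568641-91577458) and Btc (chr5:91786287-91831939, minus strand), with the first 3 on the plus strand. They are the 4 protein-coding genes annotated in this stretch of 375.4 kb. The gaps between neighbours were 39.4, 46.0 and 208.8 kb. Tgfa lies on chromosome 6 (chr6:86145420-86225151). The receptors lie on chromosome 11 (Egfr, chr11:16652206-16818161, and Erbb2, chr11:98273784-98299030) and chromosome 10 (Erbb3, chr10:128004579-128026708, minus strand). Egfr and Erbb2 overlap genes on the opposite strand, and Btc lies within the span of the annotated pseudogene Gm15710 on its own strand. The library kit did not keep strand, so reads of overlapping exons cannot be told apart.

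Promoters of 4 members are shown as the 250 bases before the RefSeq start site (GRCm38.p6). Areg is shown because it was one of the members that passed the test below, Epgn and Btc as other genes of the cluster, and Egfr as the shared receptor. No window was available for Ereg, which lies between Epgn and Areg, or for Hbegf. Capitals mark matches to 5 motifs searched on both strands. The TATA box was searched as TATAAA. The cyclic AMP response element (CRE) was searched as TGACGTCA. The AP-1 site was searched as TGACTCA. The GC box was searched as GGGCGG. The CCAAT box was searched by the letters of its name. No 2 matches in the windows shown overlapped.
Areg, chr5:91139349-91139598, plus strand: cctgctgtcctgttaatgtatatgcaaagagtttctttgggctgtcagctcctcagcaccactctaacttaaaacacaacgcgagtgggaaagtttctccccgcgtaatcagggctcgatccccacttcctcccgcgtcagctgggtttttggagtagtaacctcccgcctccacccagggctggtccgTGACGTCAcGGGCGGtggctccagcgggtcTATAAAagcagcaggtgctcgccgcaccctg
Epgn, chr5:91027267-91027516, plus strand: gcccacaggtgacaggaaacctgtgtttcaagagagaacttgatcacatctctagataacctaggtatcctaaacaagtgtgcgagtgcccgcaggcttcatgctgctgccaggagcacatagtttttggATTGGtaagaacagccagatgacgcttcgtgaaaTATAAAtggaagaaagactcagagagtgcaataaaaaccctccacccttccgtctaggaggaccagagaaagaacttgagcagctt
Btc, chr5:91402995-91403244, minus strand: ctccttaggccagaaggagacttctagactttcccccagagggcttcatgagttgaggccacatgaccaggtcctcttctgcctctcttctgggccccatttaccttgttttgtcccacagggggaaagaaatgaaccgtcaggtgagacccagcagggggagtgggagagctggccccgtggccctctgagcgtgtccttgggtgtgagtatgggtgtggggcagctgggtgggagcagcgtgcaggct
Egfr, chr11:16751953-16752202, plus strand: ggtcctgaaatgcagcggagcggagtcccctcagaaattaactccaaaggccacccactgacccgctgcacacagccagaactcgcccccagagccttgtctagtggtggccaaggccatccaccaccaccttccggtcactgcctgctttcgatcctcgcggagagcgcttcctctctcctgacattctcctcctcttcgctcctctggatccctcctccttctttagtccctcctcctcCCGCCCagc
The Areg window held 3 of the motifs, with first bases at -61 (CRE), -52 (GC box) and -31 (TATA box) from the start site. A CRE was in 1.55% of 32851 RefSeq promoter windows of the same length, a TATA box in 12.4%, a GC box in 32.7%, a CCAAT box in 33.8% and an AP-1 site in 4.46%. The Epgn window held a CCAAT box at -120 on the opposite strand and a TATA box at -86, the Egfr window a GC box at -9 on the opposite strand, and the Btc window none of the 5. The share of G and C was 57.2% for Areg, 46.8% for Epgn, 59.6% for Btc and 60.8% for Egfr, where the median of all windows was 52.4%. These matches are descriptions of the letters, and no binding was measured.

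The first question was how the levels of each gene differed between samples labelled normal, mild dysplasia and high-grade, of which the whole lung samples hold other tissue beside airway. Levels are given as CPM (each library's counts brought to a common total) after TMM scaling, or as log2 CPM with a prior count of 2. In bulk samples fewer cells of a type and less RNA per cell cannot be told apart. The mild and high-grade comparisons share the 7 normal samples, and each was fitted with strain, sample type and median transcript integrity number (TIN, a measure of RNA quality) as covariates. The middle TIN value was 58.7 in normal, 57.8 in mild and 45.5 in high-grade samples.

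**Figure D1:**
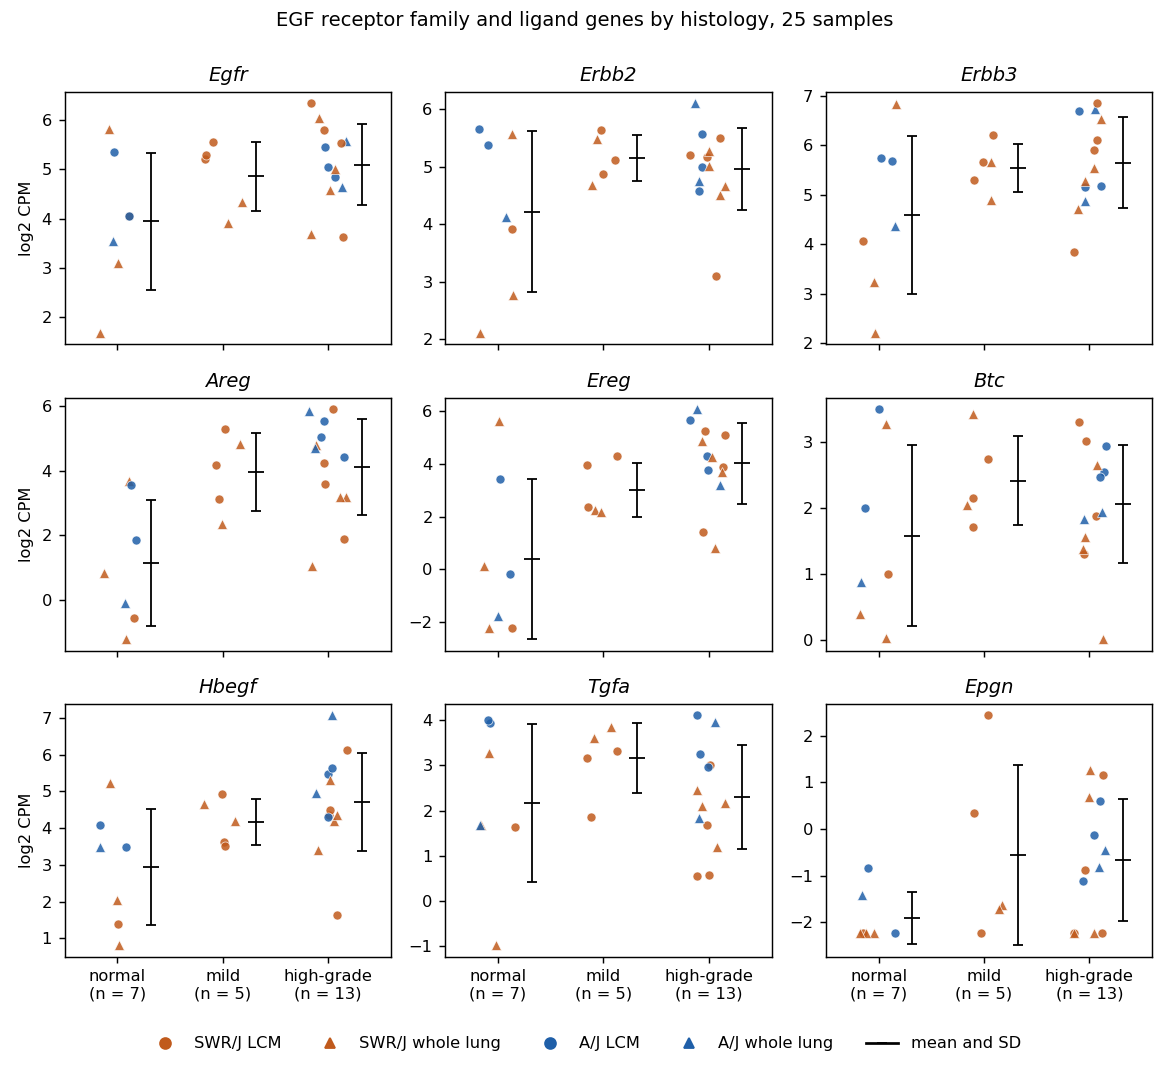
Log2 CPM of the 9 genes (vertical axes) in the normal (n = 7), mild (n = 5) and high-grade (n = 13) groups, with colour for strain, circles for LCM and triangles for whole lung, and black bars for mean and SD. Areg and Ereg show the widest gap between the normal mean (1.16 and 0.40) and the high-grade mean (4.11 and 4.02), while the groups of Tgfa lie over each other.

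Areg encodes amphiregulin, an EGFR ligand of injured and growing epithelium. In the normal samples Areg was at 0.468, 3.39, 0.221, 12.6, 1.58, 0.729 and 11.6 CPM (replicates 3, 5, 6, 7, 8, 9 and 10). In mild dysplasia it was at 8.47, 39.3, 4.91, 28.0 and 17.9 CPM (replicates 1 to 5). In the high-grade samples it ranged from 1.89 to 59.3 CPM with a median of 21.3 CPM. The groups overlapped, since normal replicates 7 and 10 were above 2 of the 5 mild samples, but the highest normal sample was exceeded in 3 of 5 mild and 8 of 13 high-grade samples. On the log2 scale the means were 1.16 ± 1.95 (SD, n = 7), 3.96 ± 1.21 (n = 5) and 4.11 ± 1.48 (n = 13).

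Hbegf encodes heparin-binding EGF-like growth factor, a ligand of EGFR that also binds ERBB4, and lies on chromosome 18 (chr18:36664583-36675459, minus strand, NCBIM37). Its normal values were 2.43, 11, 1.54, 37.2, 3.94, 10.9 and 16.8 CPM (replicates 3, 5, 6, 7, 8, 9 and 10). The mild dysplasia values were 12.1, 30.1, 18.0, 25.0 and 11.1 CPM. High-grade samples lay between 2.88 CPM, in moderate to severe dysplasia replicate 4, and 134 CPM, in the carcinoma in situ sample. No mild sample and 5 of 13 high-grade samples exceeded the highest normal sample, replicate 7, while 3 of 5 and 11 of 13 exceeded the highest of the other normal samples. The means were 2.94 ± 1.57, 4.18 ± 0.62 and 4.71 ± 1.33 log2 CPM in normal (n = 7), mild (n = 5) and high-grade (n = 13) samples.

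Against normal, 2 of the 8 tested members passed the threshold in mild dysplasia, Areg and Hbegf, both higher. Over all genes 12.4% passed in this comparison, 5.21% as higher and 7.24% as lower. Areg was higher by 3.11 on the log2 scale (standard error 0.99, edgeR quasi-likelihood adjusted p = 0.0456). Hbegf was higher by 2.33 (standard error 0.70, edgeR adjusted p = 0.0353). The log2 fold changes of the 8 members were all positive with a median of 1.42, where the median of all tested genes was -0.02 and 48.9% were positive. The members were chosen with earlier results of these data known, so this is a description. Cell type markers differed in the same comparison: the median was 1.37 for 5 epithelium markers (none passed) and 1.57 for 5 alveolar type 1 markers (1 passed), while all 3 tested thymocyte markers and 1 of 4 leukocyte markers, Cd3e, were lower, and their part in the result was not tested. The 2 calls depended on the samples and the covariates. Without normal replicate 7, 6 members passed, Egfr, Erbb2, Erbb3, Areg, Ereg and Hbegf, and 17% of all genes did. With the 5 samples with thymocyte markers left out, none of the members passed (0.674% of all genes), and Areg was higher by 2.04 and Hbegf by 1.43. Because no mild sample was from A/J, the strain difference in this comparison came from the normal and high-grade samples. Without strain and sample type in the model the differences were 2.26 for Areg (edgeR adjusted p = 0.149) and 0.76 for Hbegf (edgeR adjusted p = 0.549), and without TIN that of Hbegf was 1.24 (edgeR adjusted p = 0.234).

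In the high-grade samples none of the 8 tested members passed, where 0.0192% of all genes did, and 2 members had an unadjusted p under 0.05 (9.14% of all genes did). Those were again Areg, higher by 2.55 on the log2 scale (standard error 0.76, edgeR p = 0.0030, adjusted p = 0.324), and Hbegf, higher by 1.41 (standard error 0.50, edgeR p = 0.00993, adjusted p = 0.440). With DESeq2 in place of edgeR, Areg passed (2.45, adjusted p = 0.0474), as did 0.633% of all genes. The median log2 fold change of the members was 0.45, beside -0.01 for all tested genes, and the fold changes of Btc (0.09) and Tgfa (0.03) were close to 0. Against mild dysplasia the 8 fitted fold changes of the high-grade samples were all negative, from -1.13 (Tgfa) to -0.56 (Areg). None passed (0.326% of all genes did), nor had any an unadjusted p under 0.05 (22.5% of all genes). The group means without covariates did not share this sign. Areg, Ereg (4.02 against 3.01 log2 CPM), Hbegf, Egfr (5.09 against 4.85) and Erbb3 had higher means in high-grade than in mild samples. Erbb2, Btc and Tgfa (2.30 against 3.15) had lower means. Within SWR/J, the strain of all mild samples, Egfr, Erbb3, Ereg and Hbegf had higher means in high-grade samples, and the other tested members lower ones.

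**Figure D2:**
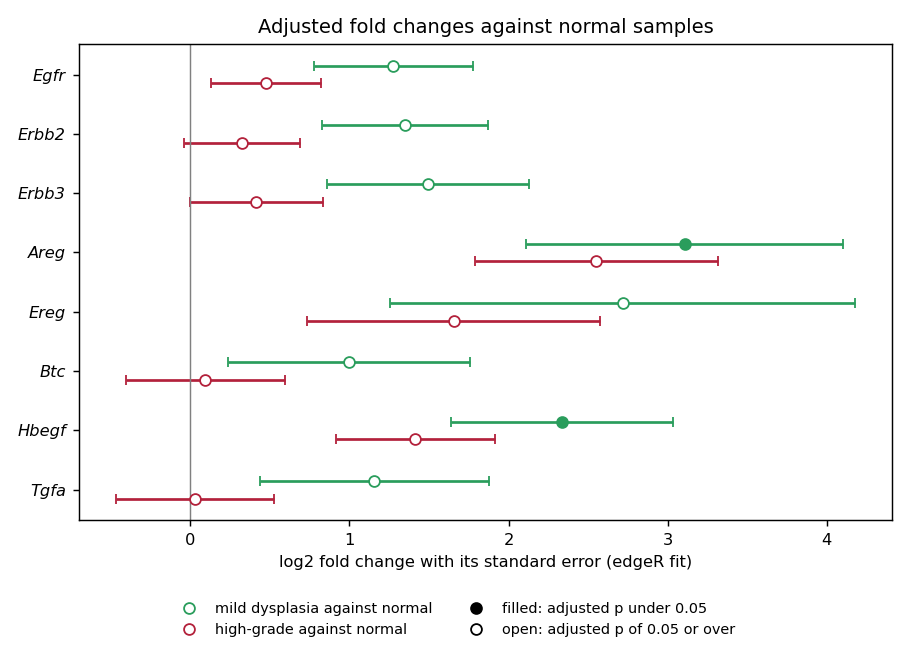
Log2 fold change against normal samples with its standard error for the 8 tested members (horizontal axis), in mild dysplasia (green, n = 5) and high-grade samples (red, n = 13), from 1 edgeR fit that shares the 7 normal samples. Filled points, Areg at 3.11 and Hbegf at 2.33 in mild dysplasia, had an adjusted p under 0.05.

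Within LCM samples the Areg mean was 1.62 log2 CPM in 3 normal, 4.20 in 3 mild and 4.37 in 7 high-grade samples. Within whole lung samples it was 0.81 in 4 normal, 3.59 in 2 mild and 3.81 in 6 high-grade samples. The difference between high-grade and normal means was therefore 2.75 in LCM and 2.998 in whole lung, and it was 3.34 in A/J and 2.79 in SWR/J. For Hbegf the same differences were 1.58, 1.99, 1.80 and 1.86. The tests of whether the high-grade difference itself changed with sample type or with strain called no member, and no member had an unadjusted p under 0.05 in either (edgeR called 0% of all genes in both, with 7.46% and 4.34% at an unadjusted p under 0.05).

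Ereg encodes epiregulin, a ligand of EGFR and ERBB4. On the log2 scale it was the member with the widest spread in normal samples (SD 3.04, n = 7). It was listed at 0 in normal replicates 3 and 8, at 0.0809, 0.664 and 0.882 CPM in replicates 9, 5 and 6, and at 10.6 and 49.7 CPM in replicates 10 and 7. All 5 mild samples lay between 4.26 and 19.6 CPM, and the high-grade samples lay between 1.56 and 66.8 CPM with a median of 19.1 CPM. The normal mean of 0.40 log2 CPM was exceeded in all 5 mild and all 13 high-grade samples, yet the carcinoma in situ and the SCC tumor sample, at 66.8 and 49.9 CPM, were the 2 that exceeded normal replicate 7. The fitted difference was 2.72 in mild (standard error 1.46, edgeR adjusted p = 0.197) and 1.66 in high-grade samples (standard error 0.92, edgeR adjusted p = 0.602). Without normal replicate 7 these became 3.79 (edgeR adjusted p = 0.0304) and 3.63 (edgeR adjusted p = 0.226).

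Neither of the next ligands passed a test. Btc, betacellulin, had means of 1.58 ± 1.37, 2.42 ± 0.68 and 2.06 ± 0.89 log2 CPM in normal (n = 7), mild (n = 5) and high-grade (n = 13) samples. Tgfa, transforming growth factor alpha, had means of 2.17 ± 1.75, 3.15 ± 0.77 and 2.30 ± 1.14 log2 CPM. Their edgeR adjusted p-values in mild dysplasia were 0.370 and 0.268. The Tgfa difference between means had opposite signs in the sample types. High-grade minus normal was -0.88 in LCM and 0.88 in whole lung samples, and mild minus normal was -0.41 and 2.30. These LCM means mix strains: normal Tgfa was at 3.96 log2 CPM in 2 A/J samples and 1.64 in 1 SWR/J sample. High-grade LCM samples were at 3.43 in A/J (n = 3) and 1.46 in SWR/J (n = 4). The mild LCM samples, all SWR/J, were at 2.78 (n = 3). Tgfa also correlated with median TIN, with Pearson's r of 0.737 in 13 LCM and 0.272 in 12 whole lung samples. The parts of strain and RNA quality in these signs were not tested. For Tgfa the test of whether the high-grade difference changed with sample type gave edgeR p = 0.526 (adjusted p = 0.905). Epgn, epigen, was listed at 0 in 5 of 7 normal samples, 1 of 5 mild and 4 of 13 high-grade samples, and its highest level was 5.2 CPM, in mild dysplasia replicate 2. Of the high-grade samples 7, and of the mild samples 2, were above the highest normal sample, normal replicate 10 at 0.344 CPM, and the gene did not pass the filter. Under edgeR's own filter, which kept it, Epgn was higher by 3.50 in mild dysplasia (standard error 1.48, edgeR p = 0.0273, adjusted p = 0.111) and by 2.65 in high-grade samples (standard error 1.16, edgeR p = 0.0332, adjusted p = 0.532).

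Egfr, the receptor that all 6 ligands bind, was at 16.4, 16.3, 8.38, 56.0, 3, 11.5 and 40.7 CPM in normal replicates 3, 5, 6, 7, 8, 9 and 10. It was at 36.5, 38.7, 19.9, 14.8 and 46.5 CPM in mild dysplasia and at 12.2 to 80.7 CPM, with a median of 32.9 CPM, in the high-grade samples. No mild sample and 2 of 13 high-grade samples exceeded normal replicate 7, and all of the other normal samples but replicate 10 lay at or under 16.4 CPM. The fitted difference was 1.28 in mild dysplasia (standard error 0.50, edgeR adjusted p = 0.0857) and 0.48 in high-grade samples (standard error 0.35).

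Erbb2 had means of 4.22 ± 1.40, 5.16 ± 0.40 and 4.96 ± 0.72 log2 CPM in normal (n = 7), mild (n = 5) and high-grade (n = 13) samples. Erbb3 had means of 4.59 ± 1.60, 5.55 ± 0.49 and 5.65 ± 0.92 log2 CPM. For both, the normal samples spread more widely than the lesions: whole lung replicates 6 and 8, the latter with the lowest epithelium markers, were lowest, at 2.77 and 2.11 log2 CPM for Erbb2 and 3.23 and 2.21 for Erbb3, and replicate 7 reached 5.56 and 6.83. In mild dysplasia Erbb2 was higher by 1.35 (standard error 0.52, edgeR adjusted p = 0.0814) and Erbb3 by 1.49 (standard error 0.64, edgeR adjusted p = 0.109). In LCM samples the high-grade mean of Erbb2 was at 4.87 and the normal mean at 4.98 log2 CPM (difference -0.11). The strains went opposite ways there, from 5.51 in 2 normal to 5.05 in 3 high-grade A/J samples. In SWR/J it went from 3.92 in 1 normal to 4.74 in 4 high-grade samples. In whole lung samples the difference was 1.41.

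Over the ranked grades, from normal (0) through mild, moderate to severe and severe dysplasia to carcinoma in situ and SCC tumor (4), no member passed the test (0.262% of all genes did), and 3 had an unadjusted p under 0.05 (13.7% of all genes). Hbegf was higher by 0.56 per step (standard error 0.19, edgeR p = 0.00664, adjusted p = 0.193). Areg was higher by 0.80 per step (standard error 0.31, edgeR adjusted p = 0.270) and Ereg by 0.66 (standard error 0.30, edgeR adjusted p = 0.336). The upper end of this scale rests on few samples, 2 severe dysplasia, 1 carcinoma in situ and 1 SCC tumor. In those 4 samples Areg was at 18.5, 1.89, 57.7 and 46.2 CPM and Hbegf at 69.3, 20.4, 134 and 44.4 CPM.

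Levels of different genes were compared as CPM per kb of annotated exon. Among the ligands Hbegf was the highest in 6 of 7 normal samples. Areg was the highest ligand in 4 of 5 mild and 8 of 13 high-grade samples, and Hbegf was the highest in all of the others. In the medians, Areg stood at 1.31 CPM per kb in normal, 14.9 in mild and 17.8 in high-grade samples, and Hbegf at 4.61, 7.57 and 9.32. Over all 25 samples Areg and Hbegf did not differ beyond their spread (mean log2 difference 0.05, SD 1.45, Areg higher in 13 of 25).

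**Figure D3:**
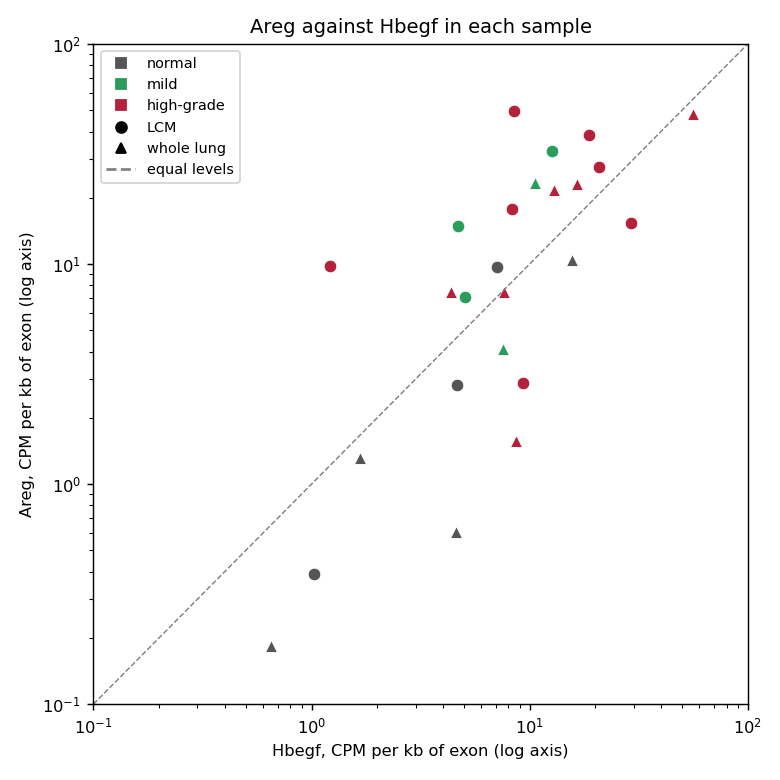
Areg (vertical) against Hbegf (horizontal) in CPM per kb of exon on log axes for the 25 samples, coloured by histology, with circles for LCM and triangles for whole lung and a dashed line of equal levels. Of the 7 normal samples 6 lie under the line, and 12 of the 18 dysplastic and tumor samples lie over it.

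Among the receptors Erbb3 was highest per kb in 18 of 25 samples and Erbb2 in the other 7, and Egfr was lowest in 24 of 25. The medians over all samples were 7.74 CPM per kb for Erbb3, 6.19 for Erbb2 and 2.83 for Egfr. The full order of medians was Areg (9.80), Hbegf (8.30), Erbb3, Erbb2, Ereg (3.08), Egfr, Tgfa (1.40), Btc (1.35) and Epgn (0.0920). Of the neighbours in this order only Btc and Epgn differed by more than the SD of their difference. Exon length was taken over all annotated transcripts (11326 bases for Egfr, 1199 bases for Areg), so genes with long or unused exons appear lower on this scale.

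The strains were compared within the same model. In that fit all 8 tested members were higher in A/J than in SWR/J. None passed (0.992% of all genes did), and 5 had an unadjusted p under 0.05 (17.5% of all genes). The median log2 difference was 1.5 for the members and 0.02 for all tested genes. Hbegf came nearest, with 2.52 (standard error 0.67, edgeR p = 0.00108, adjusted p = 0.0711). Its levels were 10.9 to 134 CPM (median 25.2) in 8 A/J samples and 1.54 to 69.3 CPM (median 18.2) in 17 SWR/J samples, which overlapped over most of their range. The other 4 were Ereg (3.03), Erbb3 (1.72), Erbb2 (1.41) and Egfr (1.26). Their means without covariates lay closer together. In A/J and SWR/J these were 3.06 and 2.69 log2 CPM for Ereg, 5.555 and 5.229 for Erbb3, 5.14 and 4.62 for Erbb2, and 4.81 and 4.68 for Egfr. The medians of Ereg (3.60 and 3.69), Erbb3 (5.43 and 5.55) and Egfr (4.94 and 5.01) were lower in A/J, and that of Erbb2 was higher (5.18 and 5.02). A/J samples had median TIN values between 53.7 and 69.6, and SWR/J samples between 21.7 and 75.1. Cell type markers differed alongside: the median log2 difference was 1.56 for 5 epithelium markers, 1.61 for 5 alveolar type 1 markers (1 of which, Pdpn, passed), 2.34 for 5 alveolar type 2 markers, 1.73 for 4 endothelium markers and -2.10 for 4 leukocyte markers, and their part in the result was not tested. The part of RNA quality was not tested beyond the TIN term, without which Tgfa was the 1 member that passed. The share of all genes that passed in that fit is not given here. Over the 25 samples median TIN correlated with the 8 tested members with Pearson's r between -0.447 (Egfr) and 0.502 (Tgfa).

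Between LCM and whole lung no member passed, where 14.6% of all genes did. At an unadjusted p under 0.05, which 30.3% of all genes met, there was 1 member, Egfr, higher in LCM by 0.60 (standard error 0.29, edgeR p = 0.0488, adjusted p = 0.162). The members' median difference was 0.19, beside -0.03 for all tested genes.

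The members were then described beside each other and beside cell type markers across the 25 samples, which share library preparation and include all grades, strains and sample types. The receptors varied together over the samples: Pearson's r of log2 CPM was 0.934 for Erbb2 and Erbb3 (Spearman 0.902), 0.908 for Egfr and Erbb3 (0.870) and 0.817 for Egfr and Erbb2 (0.718). Of the ligands Ereg was nearest to Egfr (r = 0.860, Spearman 0.869) and Tgfa farthest (r = 0.283, Spearman 0.188). Ereg and Areg, neighbours in the genome, had r = 0.763 (Spearman 0.696), and Btc at the far end of the cluster had r = 0.672 with Areg and 0.468 with Ereg.

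Basal cell markers (Krt5, Krt14, Krt15, Trp63, Ngfr), which mark the stem cells of the airway, tracked Egfr with r = 0.896 (Spearman 0.892), and with r = 0.770 within 13 LCM and 0.957 within 12 whole lung samples. They tracked Ereg with r = 0.805 and Areg with 0.487. Squamous markers tracked Egfr with r = 0.716 (Spearman 0.805, LCM 0.818, whole lung 0.718), Ereg with 0.741 and Areg with 0.283. Alveolar type 1 markers (Ager, Hopx, Pdpn, Aqp5, Rtkn2) tracked Areg with r = 0.824 (Spearman 0.804, LCM 0.828, whole lung 0.864). They tracked the other tested members with r between 0.527 (Egfr) and 0.771 (Hbegf). Epithelium markers correlated with the 8 tested members with r between 0.324 (Tgfa) and 0.643 (Erbb2). Summed basal cell markers had medians of 8.03, 10.14 and 10.77 in normal, mild and high-grade samples, and alveolar type 1 markers had medians of 9.73, 10.14 and 10.24 (log2 scale). The alveolar type 1 sum was highest in the carcinoma in situ sample (11.81), then in LCM moderate to severe dysplasia replicate 5 (11.43). That replicate had alveolar type 2 markers at 10.09 (high-grade median 12.34) and basal cell markers at 12.5. Which cells these markers came from was not tested.

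Thymocyte and general leukocyte markers ran the other way. Leukocyte markers correlated with the 8 tested members with r between -0.764 (Erbb3) and -0.352 (Tgfa). Their summed level had a median of 9.50 in normal, 5.78 in mild and 5.72 in high-grade samples. Thymocyte markers correlated with all 8 tested members with r between -0.704 (Ereg) and -0.455 (Tgfa), and the summed level had a median of 7.57 in normal samples (5.49 to 11.63), 1.71 in mild (1.04 to 4.43, with Ptcra at 0) and 3.71 in high-grade samples (0.19 to 10.87). The ranges of normal and mild samples did not overlap, and the part of these cells in the differences between grades was not tested beyond leaving out the samples above.

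**Figure D4:**
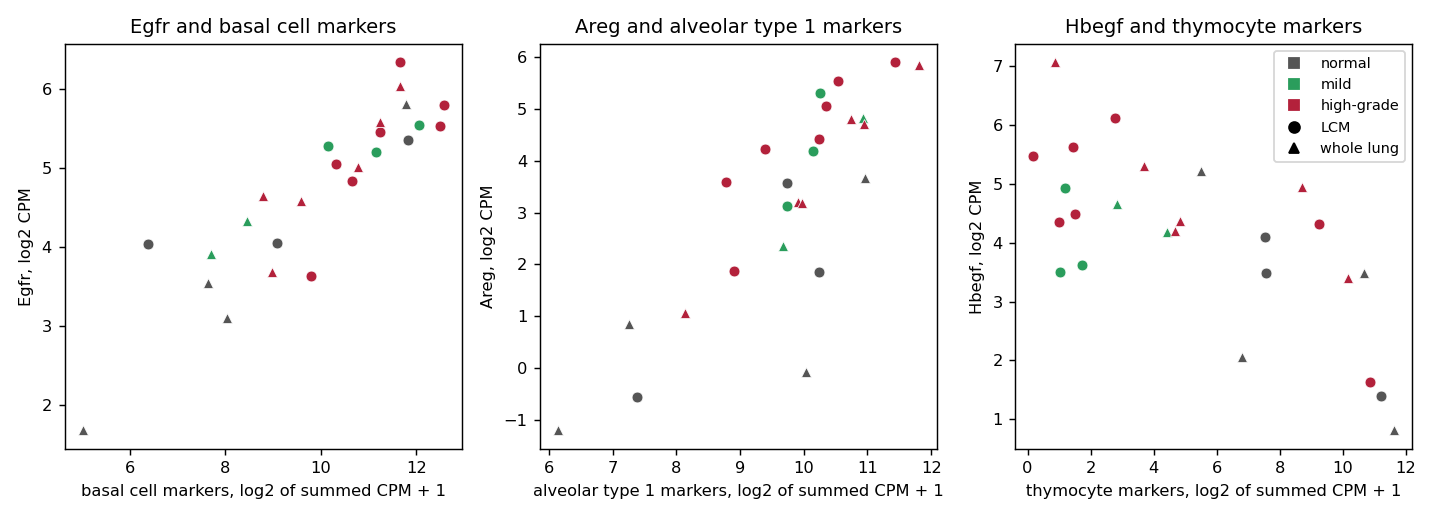
Log2 CPM of Egfr, Areg and Hbegf (vertical axes) against the log2 summed CPM of basal cell, alveolar type 1 and thymocyte markers (horizontal axes) in the 25 samples, coloured by histology, with circles for LCM and triangles for whole lung. Egfr climbs with basal cell markers (r = 0.896), Areg with alveolar type 1 markers (r = 0.824), and Hbegf is lowest in the samples with the most thymocyte markers (r = -0.691).

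Across 14212 genes, the pattern most like Egfr was that of Zfp185 (r = 0.969), followed by Arhgap32 and Lrig3, which encodes a membrane protein of the LRIG family (0.955 and 0.943). Erbb2 was nearest to Cdh1, the epithelial cadherin (0.959), then Fam129b (0.955) and AW555464 (0.954). Erbb3 was nearest to Arhgef5 (0.978), Pvrl4 (0.963), a nectin of epithelial junctions, and Cblc (0.960), a ubiquitin ligase of the Cbl family. Among the ligands Areg was nearest to Ccnd1, cyclin D1 (0.887), Oraov1 (0.882) and Ankrd56 (0.881), and Ereg to Atg9b (0.931), Cwh43 and Slc19a2 (both 0.921). Hbegf was nearest to A430105I19Rik (0.913), Fam38a (0.908) and Rbms1 (0.895). Btc was nearest to Ocln, the tight junction protein occludin (0.834), Met, the receptor of hepatocyte growth factor (0.832), and Parp12 (0.826). For Tgfa the nearest were Prkar2a (0.871), Frmd4b (0.868) and Marveld2 (0.855), and for Epgn no gene passed 0.684 (Gria3, then Cd80 and Clca1).

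The rest of the pathway was followed in 6 lists, chosen, like the members, with earlier results of these data known. Their counts are therefore descriptions. In mild dysplasia 4 of the 13 tested feedback inhibitors, genes that dampen EGFR and ERK signalling, rose, and none fell. These were Lrig1 (log2 fold change 1.27, edgeR adjusted p = 0.0139), Spry2 (1.51, adjusted p = 0.0194), Spred1 (1.06, adjusted p = 0.0198) and Socs5 (0.90, adjusted p = 0.0226). Of 11 genes induced by ERK signalling 2 rose and none fell, Dusp6, a phosphatase of ERK (1.37, edgeR adjusted p = 0.0205), and Phlda1 (1.44, edgeR adjusted p = 0.0407). Over all genes 5.21% passed as higher and 7.24% as lower. The median log2 fold changes of these lists were 1.05 and 1.21, beside -0.02 for all tested genes. With the 5 samples with thymocyte markers left out, 1 feedback inhibitor and no ERK output gene passed (0.674% of all genes), and without strain and sample type in the model none of either list did (0% of all genes, with 3345 at an unadjusted p under 0.05).

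None of the 16 adaptor and ERK cascade genes, the 8 genes of the PI3K and PLC branch, the 4 genes of ligand sheddases and trafficking and the 4 tested genes of the other ErbB receptor and ligands passed in mild dysplasia, in either direction. Erbb4 and Nrg3 did not pass the filter. In each list the gene with the smallest p was Ptpn11, a phosphatase that relays receptor signals (0.59, edgeR adjusted p = 0.0560), Pdpk1, a kinase that activates AKT (-0.52, edgeR adjusted p = 0.141), Rhbdf1, a partner of ADAM17 (1.03, edgeR adjusted p = 0.0741), and Nrg1, neuregulin 1 (1.17, edgeR adjusted p = 0.406). The median log2 fold changes were 0.24 for adaptors and ERK cascade, 0.04 for PI3K and PLC, 0.27 for sheddases and trafficking, and 0.06 for the other ErbB genes.

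In high-grade samples no gene of the 6 lists passed. Etv4, a transcription factor induced by ERK, was higher by 2.15 (edgeR p = 0.00245, adjusted p = 0.324), Dusp6 by 0.87 (edgeR adjusted p = 0.324) and Spred1 by 0.71 (edgeR adjusted p = 0.317). Nrg1 was higher by 1.57 (edgeR adjusted p = 0.521). Of the 6 lists, 1 gene differed between high-grade samples and mild dysplasia: Lrig1 was lower in the high-grade samples (log2 fold change -1.24, edgeR adjusted p = 0.0497).

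**Figure D5:**
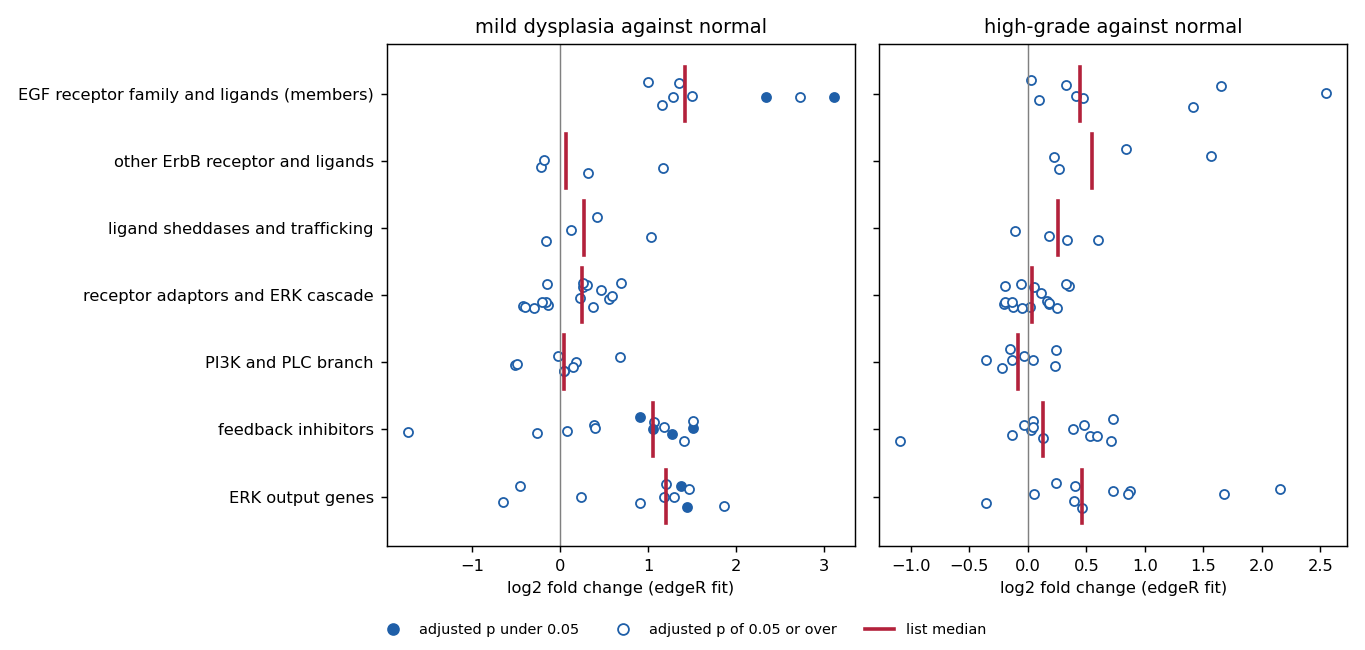
Log2 fold change against normal samples (horizontal axes) of the tested genes of the members and of 6 pathway lists, in mild dysplasia (left) and high-grade samples (right), with a red line at each list's median. Filled points had an adjusted p under 0.05: 2 members, 4 feedback inhibitors and 2 ERK output genes in mild dysplasia, and none in high-grade samples.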

How the data were processed

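RNA from LCM tissue and whole lung sections of SWR/J and A/J mice was made into polyA libraries with an unstranded kit and sequenced as single reads of 50 nucleotides. The authors trimmed the reads (Trimmomatic), aligned them to mm9 (STAR) and deposited expected counts of each gene (RSEM), which are not normalized, so each sample's sum reflects its depth. For the tests each value was rounded to a whole number. The 25 samples with the passed quality label were grouped by the dysplasia grade label. Genes were kept where log2 CPM with a prior count of 2 had an interquartile range above 0 and a sum above 1 over the samples. The comparisons used edgeR 4.0.16 (R 4.3.3), with TMM scaling, a robust quasi-likelihood test with strain, sample type and median TIN as covariates, and Benjamini-Hochberg adjustment over all 15630 genes at a threshold of 0.05. The fits were checked on simulated data. Alternatives were DESeq2 1.42.0, other scaling and filters, fewer covariates, all 40 samples, subsets and leaving out each sample.

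All 9 members are named. In the pathway lists genes are named where the adjusted p was under 0.05 or was among the 2 smallest of a list, and the genes most like a member are the 3 with the highest r among tested genes with a mean log2 CPM of at least 1. The members and lists were chosen with earlier results of these data known. Gene symbols and coordinates came from an Ensembl-based annotation of NCBIM37, in which all 37310 identifiers were found, and 3 older symbols of listed genes were matched through RefSeq synonyms (Hras, Dnah5 and Adgre1). Promoter windows were copied from RefSeq (GRCm38.p6), which held 6 of the 9 members used here. Counting error is part of the SD between samples. The human data of the study were not analysed here.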

Additional observations from a re-analysis of the deposited data

Results flagged for a closer look

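Erbb2 in moderate to severe dysplasia replicate 4, an SWR/J LCM sample, stood at 3.1 log2 CPM, apart from the other 8 moderate to severe samples, of which the nearest was at 4.52. The gap was 0.59 of the range of the 9 samples, which is past Dixon's 95% limit, and chance alone flags about 1 in 20 groups. The same sample had the highest summed thymocyte markers of the high-grade samples (10.87 on the log2 scale).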

How the results depend on the processing

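The comparison of mild dysplasia with normal, in which 2 members passed, was the one that depended most on the processing. Of the 8 members tested, 6 passed with DESeq2 (Egfr, Erbb2, Erbb3, Areg, Ereg and Hbegf), 1 without a filter on low counts (Hbegf), and 0 without TIN, without strain and sample type, with all 40 samples, without the 2 samples with differing labels, in LCM, whole lung or SWR/J samples alone, and with the 5 or 8 samples with thymocyte or skeletal muscle markers left out, an alternative chosen after seeing the data. Leaving out each sample gave 0 to 6, with 6 without normal replicate 7, and 0 without normal replicates 3, 6 or 8, mild dysplasia replicates 2, 3 or 4, or carcinoma in situ replicate 2. Areg then lay between 2.70 and 3.95 and passed in 10 of 25 fits, and Hbegf between 2.07 and 2.72 and passed in 18 of 25. Over all genes mild dysplasia gave 1945 calls and DESeq2 gave 3624, the 5-sample alternative 105, the 8-sample alternative 0, and all 40 samples 1.

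In the high-grade comparison 1 member passed with DESeq2, over the ranked grades 1 without strain and sample type (Hbegf), and between strains 3 with DESeq2 (Erbb2, Erbb3 and Hbegf), 1 without TIN (Tgfa) and 0 to 1 when each sample was left out (Hbegf without moderate to severe dysplasia replicate 11). For the ranked grades and the strains the shares of all genes in these fits are not given here. Those counts are therefore no result about the members. High-grade calls over all genes were 3 with edgeR and 99 with DESeq2. The fold changes of Btc and Tgfa in high-grade samples had no stable sign: leaving out single samples gave -0.0814 to 0.946 and -0.19 to 0.93, the 5-sample alternative -0.37 and -0.47, and the 8-sample alternative -0.12 and -0.37, while Tgfa was at -0.0111 with DESeq2 and -0.0342 without TIN. Btc in mild dysplasia was at -0.0165 and -0.168 under the 5- and 8-sample alternatives, and Erbb2 in high-grade LCM samples alone was at -0.16. Between LCM and whole lung, leaving out single samples gave -0.17 to 0.83 for Areg, -0.26 to 0.77 for Ereg and -0.27 to 0.31 for Tgfa. There Ereg was at -0.10 without TIN, -0.30 with all 40 samples and -0.29 without the samples with differing labels, Erbb2 was at -0.0228 under the 8-sample alternative, and Tgfa was at 0.0391 without the 2 samples with TIN under 25. With a prior count of 0.25 the normal mean of Epgn was -4.28 log2 CPM in place of -1.91. The cause of these changes was not tested. Mild dysplasia kept 2 calls with DESeq2's size factors in edgeR, with edgeR's own filter and without the 2 samples with TIN under 25 (also chosen after seeing the data), and the comparisons not named here gave 0 in every fit run. No paired analysis was possible because the labels do not tell which samples share an animal. The replicate numbers used here only name samples in order. Low depth limits Epgn and the normal values of Ereg, and the 15 samples without the passed label held a median of 1 Areg count.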
